A study of Mus musculus with 6 samples.

Results

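The 9 genes described here, Podxl, Ezr, Msn, Rdx, Slc9a3r1, Myh9, Myh10, Myl12a and Myl12b, encode proteins that tie the plasma membrane to the contractile actin cortex. They were taken by gene name from a table of 55487 genes, and each name matched 1 row. The set was chosen by the fold changes of Podxl and Myh10 between Tespa1-/- and Tespa1+/+ cells, which are among the largest falls in the table. The difference between genotypes is therefore given for these 9 genes as a description. Calls of these genes from the fit over all genes are counted below, but nothing is read from them. The cells were LSKs (bone marrow cells without lineage markers and with Sca-1 and c-Kit on their surface, among which the hematopoietic stem and progenitor cells are found), and RNA was sequenced from 3 Tespa1+/+ and 3 Tespa1-/- samples. All mice of both groups had received total body irradiation of 5 Gy and were examined on day 13. They were males of 8 to 10 weeks. The null mice carried B6.129S-Tespa1tm1Smoc on a C57BL/6 background, a germline allele that the other cells of the animal carry too, and the labels call the Tespa1+/+ mice littermates. Neither the labels nor the methods said whether a sample was 1 mouse or a pool.

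Podocalyxin, the product of Podxl, is a heavily sialylated membrane mucin of the Cd34 family, known from kidney podocytes, endothelium, megakaryocytes and blood-forming progenitors. Its short cytoplasmic tail ends in a motif that binds the PDZ domains of the adaptor Nherf1 (gene Slc9a3r1). Nherf1 in turn holds ezrin, radixin and moesin (genes Ezr, Rdx and Msn), together called ERM proteins, which bind filamentous actin when a threonine near their C-terminus is phosphorylated. Contraction of the cortex comes from nonmuscle myosin II. Its heavy chains are encoded by Myh9 (myosin IIA) and Myh10 (myosin IIB), and its regulatory light chains by Myl12a and Myl12b, whose phosphorylation by the ROCK kinases or myosin light chain kinase switches the motor on.

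The parts of the coding sequence in which these partners meet are shown first, because they mark where the family members are alike and where reads can be told apart. They were read from GENCODE M21 transcripts (build GRCm38) and all lie in coding exons. The first set gives the last 60 bases of the coding sequence of Podxl (chr6:31523022-31523081, minus strand, exon 8 of 8) and of its relative Cd34 (chr1:194960062-194960121, plus strand, exon 8 of 8), with the last 4 codons before the stop, which encode the PDZ-binding end, in capitals.
Podxl: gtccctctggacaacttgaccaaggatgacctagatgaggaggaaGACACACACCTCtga
Cd34: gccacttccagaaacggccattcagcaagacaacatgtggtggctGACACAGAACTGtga
The second set gives 51 bases around the codon of the regulatory threonine (in capitals) of Ezr (chr17:6739339-6739389, minus strand, exon 13 of 13), Rdx (chr9:52086393-52086443, plus strand, exon 14 of 14) and Msn (chrX:96166548-96166598, plus strand, exon 13 of 13).
Ezr: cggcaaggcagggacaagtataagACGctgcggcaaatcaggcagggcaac
Rdx: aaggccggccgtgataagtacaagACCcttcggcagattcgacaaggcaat
Msn: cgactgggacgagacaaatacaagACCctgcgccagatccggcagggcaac
Over these 51 bases Ezr and Rdx differed at 17, Rdx and Msn at 16 and Ezr and Msn at 12. The last set compares the light chains. Myl12a (chr17:70996788-70996853) and Myl12b (chr17:70977139-70977204), both on the minus strand in exon 2 of 4, share the 66 bases around the phosphorylated serine without a difference, so 1 line stands for both. The 45-base stretch in which they differ most (bases 160 to 204 of the coding sequence, across exons 2 and 3) follows, with the 9 differing bases in capitals.
Myl12a and Myl12b, shared: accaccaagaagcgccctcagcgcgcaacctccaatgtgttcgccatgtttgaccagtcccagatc
Myl12a, most different: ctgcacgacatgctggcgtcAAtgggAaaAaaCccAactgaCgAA
Myl12b, most different: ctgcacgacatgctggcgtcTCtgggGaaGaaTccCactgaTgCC

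The identity of the coding sequences sets how well the paralogs can be separated by reads. Of the 519 coding bases of Myl12a and Myl12b 96.5% were identical, against 74.4% for Myh9 and Myh10 and 69.9% to 73.2% among the ERM genes. Of all 100-base windows of the annotated transcripts, none of Podxl, Ezr, Msn, Rdx or Slc9a3r1 occurred in a transcript of another gene, and only 0.174% of those of Myh9 and 0.215% of those of Myh10 did. For Myl12a this share was 13.1% and for Myl12b 24.0%, mostly through Gm49909, an annotated gene (chr17:70974119-71002208) that overlaps both. Values of the 2 light chain genes are therefore uncertain. These are shares of windows and not of reads, so they do not give the size of the error. Other genes overlap the exons of Ezr (Sytl3, 4 bases) and Msn (Gm24718, 136 bases) only slightly.

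Total counts ranged from 12856630 to 30576981 per library. Tespa1, the targeted gene, was at 32.7 to 36.0 CPM in Tespa1+/+ and at 14.2 to 15.3 CPM in Tespa1-/- libraries (CPM, counts scaled by library total and TMM factors), so its row was reduced and not at 0. The sorting markers Kit and Ly6a (the gene of Sca-1) were counted in every library. Kit was lower in Tespa1-/- LSKs (322 to 341 against 165 to 177 CPM), and Ly6a lay between 43.4 and 63.8 CPM in Tespa1+/+ and between 38.1 and 44.2 CPM in Tespa1-/- LSKs. Fold changes followed gene length: across 10100 well-expressed genes within this comparison, the log2 fold change and the exon length had a Spearman correlation of -0.62, and -0.091 after a correction for length. With this correction, Tespa1 had a log2 fold change of -0.99 (-1.23 without it). Kit was at -0.56 with it (-0.97 without it), which is under the fold required for a call. Ly6a went the other way, from -0.32 without it (edgeR adjusted p = 0.109, not called) to -0.64 with it (adjusted p = 0.00896, called lower). Fewer cells of a type and less RNA per cell cannot be told apart in such bulk samples.

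Of the 9 genes, 6 had lower CPM in every Tespa1-/- library than in any Tespa1+/+ library, 2 had higher CPM without overlap and 1 overlapped. Without overlap, 34.6% of the 15332 genes tested were lower and 34.5% were higher. At the call used here, an edgeR adjusted p under 0.05 with a fold over 1.5, 3 of the 9 genes (Podxl, Myh10 and Myh9) were lower and none was higher. Myh9 lay just past the fold, and without Tespa1+/+ replicate 2 or Tespa1-/- replicate 3 it was at -0.57 on the log2 scale, under the fold. Among all genes tested, 19.2% were called lower and 14.0% higher. With the length correction 2 of the 9 (Podxl and Myh10) were called lower, beside 15.3% of all genes called lower and 8.18% called higher. Because the contrast itself chose the set, nothing is read from these counts. The median log2 fold change of the 9 genes was -0.07, and that of all genes was -0.00034. The set split into 2 genes with falls of 9.41-fold and 12.2-fold and 7 genes that moved by at most 1.51-fold in either direction.

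**Figure D1:**
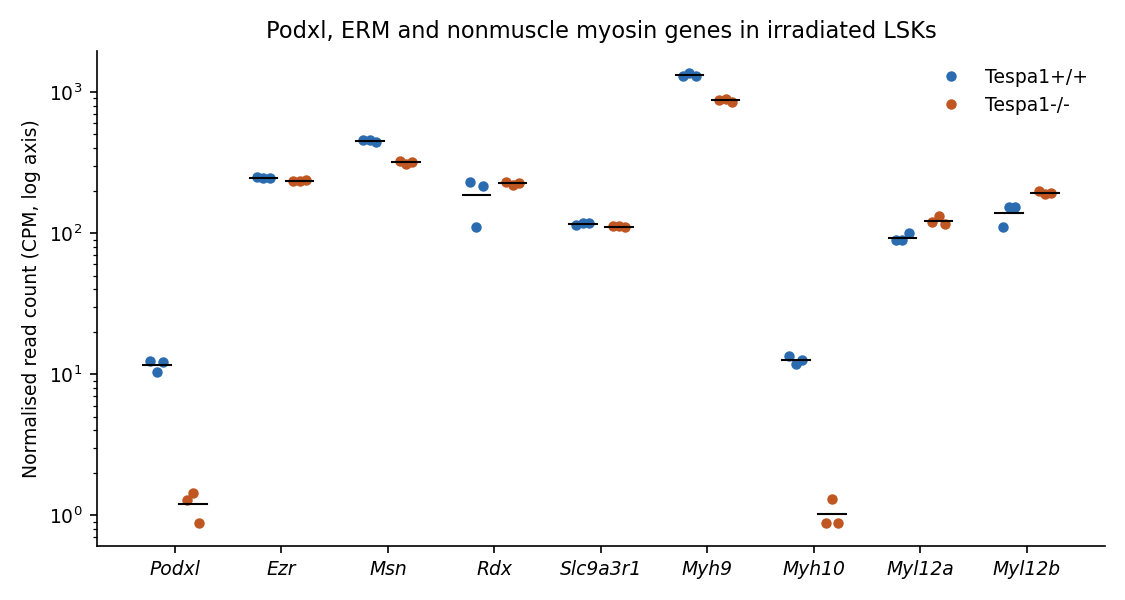
Normalised read count (CPM, log axis) of the 9 genes in each library. Points are single libraries of Tespa1+/+ (blue) and Tespa1-/- (orange) LSKs and bars are group means. Podxl and Myh10 dropped from between 10.4 and 13.4 CPM to between 0.881 and 1.45 CPM, while the other 7 genes stayed between 88.9 and 1358 CPM.

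Podxl (ENSMUSG00000025608, chr6:31519488-31563981, minus strand) was counted 224, 327 and 180 times in the Tespa1+/+ libraries and 22, 21 and 11 times in the Tespa1-/- libraries. This corresponds to 12.3, 10.4 and 12.1 CPM and to 1.29, 1.45 and 0.887 CPM. Each Tespa1-/- library lay far below each Tespa1+/+ library, and the 3 values within a genotype were close to each other. Means were 11.6 ± 1.09 and 1.21 ± 0.289 CPM (SD, n = 3 each), so the level in Tespa1-/- LSKs was 9.41-fold lower (log2 fold change -3.23, SE 0.17). Length correction left it at -3.06. Ranked among the 1685 genes called lower that had a mean count of at least 100, Podxl stood at place 5 and Myh10 at place 3. Both were chosen as being among the largest falls, so nothing is read from these places. Counts of 11 to 22 are small, yet all exceed the 3 counts that a count of 0 allows, so the gene was still detected in every Tespa1-/- library.

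Slc9a3r1 (ENSMUSG00000020733, chr11:115163341-115181181, plus strand), whose product binds the podocalyxin tail, hardly differed. Its levels were 113, 118 and 118 CPM in Tespa1+/+ and 111.5, 112.2 and 109.9 CPM in Tespa1-/- LSKs. The groups were separated by a narrow margin (log2 fold change -0.07, SE 0.03). After length correction the value was -0.29. Slc9a3r1 is the shortest of the 9, with 1925 exonic bases.

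Of the ERM genes, Msn (ENSMUSG00000031207, chrX:96096042-96168552, plus strand), which encodes moesin, the ERM protein most typical of blood cells, was at 453, 455 and 446 CPM in Tespa1+/+ and at 325, 308 and 318 CPM in Tespa1-/- LSKs. The libraries of each genotype were close together and the groups were far apart (log2 fold change -0.51, SE 0.03), although length correction brought the value to -0.26. Ezr (ENSMUSG00000052397, chr17:6738041-6782784, minus strand), encoding ezrin, was at 249, 245 and 248 CPM in Tespa1+/+ and at 234, 236 and 237 CPM in Tespa1-/- LSKs. The groups did not overlap but lay close together (log2 fold change -0.07, SE 0.03, and -0.12 with length correction).

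Rdx (ENSMUSG00000032050, chr9:52047173-52088735, plus strand), encoding radixin, was the only one of the 9 with overlapping groups. It was at 230.2, 111 and 215 CPM in Tespa1+/+ and at 231, 220.5 and 227 CPM in Tespa1-/- LSKs. A single library, Tespa1+/+ replicate 2, stood apart from the other 5, and it is also the deepest of the 6. The log2 fold change was 0.29 (SE 0.24) with this library and 0.03 (SE 0.04) without it. Length correction of all 6 libraries gave 0.39. The same library was not set apart in Ezr or Msn.

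In the deposited FPKM values, counts are divided by a length fixed per gene, so the levels of different genes depend on that length. For most of the 9 genes it was longer than the exonic bases given here, among them Rdx, Myh10 and Myl12a. Shares and orders by FPKM hold only on this scale. On it, the ERM family was made up mostly of ezrin and moesin transcripts. In Tespa1+/+ LSKs the shares of the summed FPKM were 44.5% ± 2.11 for Ezr, 40.6% ± 2.53 for Msn and 15.0% ± 4.63 for Rdx (SD, n = 3). In Tespa1-/- LSKs they were 47.4% ± 0.718, 31.9% ± 0.456 and 20.7% ± 0.263 (SD, n = 3). The Msn share was lower in each Tespa1-/- library (31.4% to 32.4%) than in each Tespa1+/+ library (39.1% to 43.5%). These shares carry no length correction. By exonic bases, on which that correction rests, Msn is the longest ERM gene (6327, Rdx 4639 and Ezr 3290). The length by which FPKM divides was longest for Rdx. With the correction, the log2 fold changes of Msn and Ezr were closer to each other, at -0.265 and -0.124. The Rdx share was 9.64% in Tespa1+/+ replicate 2 and 17.2% to 18.0% in the other Tespa1+/+ libraries, still below the 20.5% to 21.0% of the Tespa1-/- libraries. The summed FPKM of the family was 164 ± 9.06 in Tespa1+/+ and 136.3 ± 1.48 in Tespa1-/- LSKs (SD, n = 3). The FPKM total over all genes differs between the genotypes, so these sums are not compared.

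Of the myosin heavy chains, Myh10 (ENSMUSG00000020900, chr11:68691559-68816632, plus strand) was counted 243, 376 and 186 times in Tespa1+/+ and 15, 19 and 11 times in Tespa1-/- libraries. This gave 13.4, 11.9 and 12.55 CPM against 0.881, 1.31 and 0.887 CPM, 12.2-fold lower in Tespa1-/- LSKs (log2 fold change -3.61, SE 0.16). The value remained at -3.13 after length correction, and leaving out single libraries gave -3.82 to -3.49. As for Podxl, no library of one genotype approached the other.

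Myh9 (ENSMUSG00000022443, chr15:77760587-77842175, minus strand) was expressed at a much higher level, with 1299, 1358 and 1302 CPM in Tespa1+/+ and 879, 895 and 847 CPM in Tespa1-/- LSKs. It was 1.51-fold lower without overlap (log2 fold change -0.60, SE 0.03). This gene has 12928 exonic bases, the longest of the 9, and with the length correction its log2 fold change was -0.02 (SE 0.03). The lower value of Myh9 was thus seen only without the length correction, while those of Podxl and Myh10 were seen with and without it.

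Myh9 provided nearly all heavy chain transcripts in both genotypes. Myh10 made up 0.883%, 0.753% and 0.826% of the summed heavy chain FPKM in the Tespa1+/+ libraries and 0.0866%, 0.126% and 0.0905% in the Tespa1-/- libraries. Myh14, the gene of myosin IIC, had no count in any library. The summed heavy chain FPKM was 94.8 ± 2.22 in Tespa1+/+ and 58.1 ± 1.66 in Tespa1-/- LSKs (SD, n = 3). As for the ERM genes, these sums are not compared between genotypes. Nearly all of each sum is Myh9, whose log2 fold change was -0.02 with length correction.

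**Figure D2:**
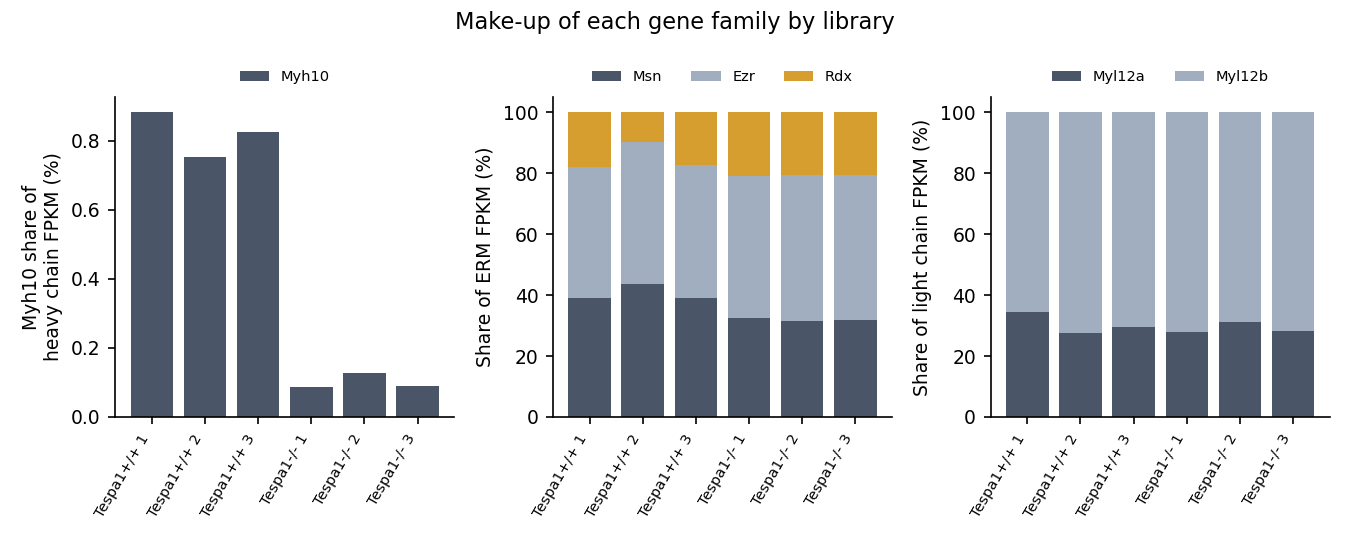
Share of each gene in the summed FPKM of its family, by library. The left panel shows Myh10 among Myh9, Myh10 and Myh14 (axis up to 1%), which drops from between 0.753% and 0.883% to between 0.0866% and 0.126%. The middle panel shows Msn, Ezr and Rdx, with the low Rdx share (9.64%) of Tespa1+/+ replicate 2, and the right panel shows Myl12a and Myl12b.

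The regulatory light chains were the genes of the set that were higher in Tespa1-/- LSKs. Myl12a (ENSMUSG00000024048, chr17:70993656-71002878, minus strand) was at 89.0, 88.9 and 99.97 CPM in Tespa1+/+ and at 119, 133 and 116 CPM in Tespa1-/- LSKs (log2 fold change 0.41, SE 0.07). Myl12b (ENSMUSG00000034868, chr17:70973133-70990890, minus strand) was at 110.3, 153 and 154 CPM and at 199, 190.1 and 192.5 CPM (log2 fold change 0.48, SE 0.12). The groups did not overlap for either gene, and for Myl12b the first Tespa1+/+ library was well below the other two, with a log2 fold change of 0.34 without it. Length correction gave 0.36 for both genes.

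Because Gm49909 shares exons with both genes, the 3 rows were also added up. The sum was 238, 277 and 307 CPM in Tespa1+/+ and 373, 408 and 348.5 CPM in Tespa1-/- LSKs, with no overlap and a log2 ratio of the means of 0.46. The split between the 2 genes hardly moved on the FPKM scale, with Myl12b at 69.5% ± 3.57 and 70.9% ± 1.85 of the family (SD, n = 3). Myl9, the smooth muscle form of the light chain, was at 0 in all but 1 library, which had an FPKM share of 0.0556%.

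**Figure D3:**
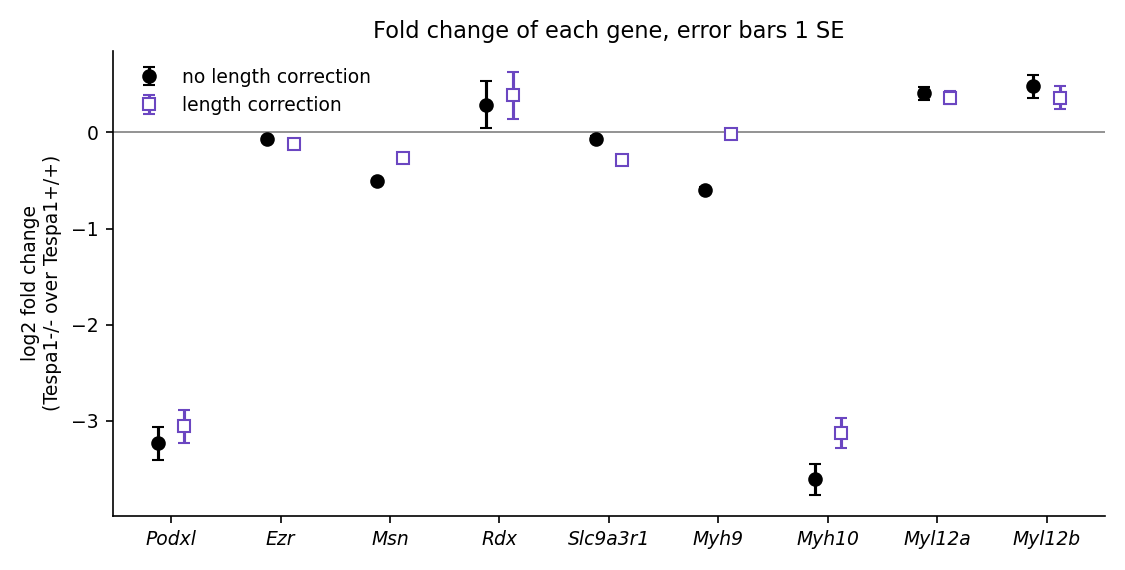
Log2 fold change (Tespa1-/- over Tespa1+/+) of each of the 9 genes without (black circles) and with (open squares) the length correction, with bars of 1 SE. Podxl and Myh10 lay at or below -3.06 in both, whereas Myh9 moved from -0.60 to -0.02.

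On the FPKM scale, the order of the 9 genes in Tespa1+/+ LSKs was Myh9 (94.0 ± 2.26), Ezr (72.7 ± 0.678), Msn (66.4 ± 0.748), Slc9a3r1 (62.5 ± 1.35), Myl12b (37.0 ± 6.60), Rdx (24.8 ± 8.72), Myl12a (16.0 ± 1.10), Podxl (2.10 ± 0.199) and Myh10 (0.777 ± 0.0465), each as mean and SD of 3 libraries. Rdx overlapped in range with both of its neighbours, Myl12b and Myl12a, through its 1 low library. All other neighbours were separated. In Tespa1-/- LSKs, Ezr was first with 64.6 ± 0.424, followed by Myh9 (58.1 ± 1.65) and Slc9a3r1 (55.7 ± 0.615), whose ranges overlapped slightly. Next came Myl12b (48.1 ± 1.09), Msn (43.5 ± 1.08), Rdx (28.2 ± 0.645) and Myl12a (19.8 ± 1.51). Podxl (0.204 ± 0.0488) and Myh10 (0.0589 ± 0.0142) were again last. The sum of FPKM over all genes was between 350332 and 351987 in Tespa1+/+ and between 432222 and 433536 in Tespa1-/- libraries. The FPKM order is therefore compared only within a genotype, where it still depends on the length fixed per gene.

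To see which genes followed the same course, profiles over the 6 libraries were compared by the root mean square distance of centred log2 CPM among 10820 genes. The nearest to Podxl were Hmga2, an architectural chromatin protein typical of fetal stem cells (distance 0.0953), Gimap6, a GTPase of the immunity-associated family (0.123), and Dst, a linker of the cytoskeleton (0.153). Nearest to Myh10 were Gimap6 (0.139), the pseudogene Gm4759 (0.179) and Podxl (0.183). Hmga2 was at 36.9, 36.0 and 37.8 CPM in Tespa1+/+ and at 5.58, 5.17 and 3.55 CPM in Tespa1-/- LSKs. The profiles hold only 6 libraries in 2 groups, so a fall of similar size is enough to bring 2 genes near each other.

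Next, 98 further genes of the cortex in 8 lists, none of them among the 9, were tested with edgeR and adjusted over all 15332 genes. Of the 88 that passed the filter on low counts, 28 were called lower and 2 higher, beside 19.2% lower and 14.0% higher among all genes tested, and 58 were not called. Both rises (Arhgdib and Ppp1r14b) fell short of the fold when total counts or FPKM values were used. The median of the 88 log2 fold change was -0.34. These genes are long, with a median of 6475 exonic bases against 3664 for all genes tested. With the length correction 13 of the 88 were called lower and 4 higher, beside 15.3% and 8.18% of all genes, so that the count of lower genes was near the background. The median was then -0.00046. Neither count is compared here with chance.

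**Figure D4:**
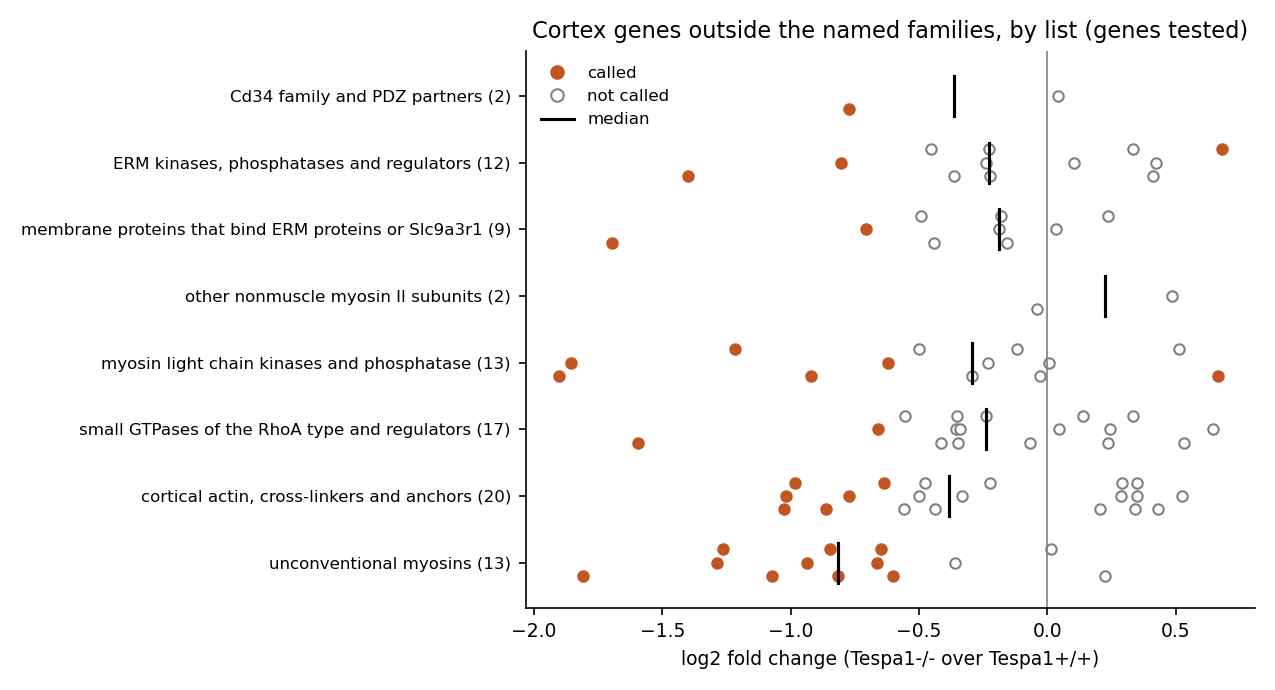
Log2 fold change (Tespa1-/- over Tespa1+/+) of the genes in 8 cortex lists that do not contain the 9 genes, without length correction. Each point is a gene, filled where called (edgeR adjusted p under 0.05 and fold over 1.5), and bars are list medians. The median lies at -0.82 for the unconventional myosins and between -0.38 and 0.22 for the other lists.

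Among the relatives and PDZ partners of podocalyxin, Cd34, a sialomucin with the same type of tail, was 1.71-fold lower in Tespa1-/- LSKs (514 ± 3.51 against 301 ± 6.08 CPM, SD, n = 3, edgeR adjusted p = 1.36e-06). Its log2 fold change was -0.77 (SE 0.03), and -0.46 with length correction, which is below the fold required. Slc9a3r2, the second Nherf adaptor gene, was close to 3.6 CPM in both groups (log2 fold change 0.04, SE 0.13, adjusted p = 0.804). Podxl2, the remaining member of the family, and Pdzk1 were too low to be tested, with at most 0.726 CPM in any library.

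Of the 12 regulators of ERM proteins, 2 fell and 1 rose, beside 19.2% lower and 14.0% higher among all genes tested. The 2 that fell are kinases that phosphorylate the ERM threonine, Map4k4 (log2 fold change -1.40, SE 0.13, adjusted p = 7.17e-05) and Stk10, the kinase LOK of lymphocytes (-0.80, SE 0.05, adjusted p = 1.53e-05). Both were also called with length correction, at -0.96 and -0.65. Slk, a close relative of Stk10, was at -0.37 and Nf2, the gene of the ERM-like protein merlin, at -0.23, neither past the fold of 1.5. Both values turned to 0.01 and 0.06 with length correction. Arhgdib, which holds small GTPases of the RhoA type inactive, rose from 502 to 518 CPM to 764 to 850.2 CPM (log2 fold change 0.68, SE 0.04, adjusted p = 1.32e-05). With length correction it was at 0.43 and no longer called, and Ppp1cb, a catalytic phosphatase subunit, was called higher instead (0.92, adjusted p = 0.013, against 0.41, adjusted p = 0.165, without the correction). Ppp1cb was at 250.7, 222.1 and 120.9 CPM in Tespa1+/+ and at 267.1, 257 and 267.1 CPM in Tespa1-/- LSKs, with Tespa1+/+ replicate 3 well below the rest.

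Of 9 membrane proteins that bind ERM proteins or Nherf1, 2 fell, beside 19.2% called lower among all genes tested. Cd93, a glycoprotein of progenitors and endothelium that binds moesin, went from 491 to 501 CPM to 151 to 158.5 CPM (log2 fold change -1.70, SE 0.03, edgeR adjusted p = 2.34e-07). This was the largest of the 9, and it was called with length correction as well, at -1.42. Cd44, the hyaluronan receptor, was at -0.71 (SE 0.04, adjusted p = 5.15e-06), and at -0.42 with length correction, where it was not called. The 7 others lay between -0.49 and 0.24.

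The other subunits of nonmuscle myosin II were not called. Myl6, the essential light chain, was at 88.9, 93.9 and 100.4 CPM in Tespa1+/+ and at 125, 142 and 129 CPM in Tespa1-/- LSKs (log2 fold change 0.48, SE 0.07, adjusted p = 0.000518). The direction was that of Myl12a and Myl12b and its fold was likewise under 1.5. Myl6b was at -0.04 (SE 0.10, adjusted p = 0.758).

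Among 13 tested kinases, phosphatase subunits and inhibitors that act on the light chain, 5 fell and 1 rose. Among all genes tested, 19.2% were lower and 14.0% higher. Dapk1 (log2 fold change -1.90, SE 0.16, adjusted p = 4.51e-05), Cdc42bpa, the kinase MRCK alpha (-1.86, SE 0.16, adjusted p = 5.10e-05), and Mylk, the classical myosin light chain kinase (-1.22, SE 0.12, adjusted p = 0.000104), fell the most among those with a mean count of at least 50. All 3 were called with length correction too, at -1.49, -1.11 and -0.70. They are low in LSKs, with at most 14.2 CPM in any library. Rock1, a kinase activated by RhoA, in contrast, was at 162 to 165 CPM in Tespa1+/+ and at 161 to 169 CPM in Tespa1-/- LSKs (log2 fold change 0.01, SE 0.03, adjusted p = 0.895) and its sign changed with the scaling. With length correction it was called higher, at 0.70. Rock2 was at -0.50 and, with length correction, at 0.10. Ppp1r12a, the targeting subunit of myosin phosphatase, was at -0.29 and 0.07. Ppp1r14b, an inhibitor of that phosphatase, rose by 0.67 on the log2 scale (SE 0.04, adjusted p = 1.37e-05), and by 0.39 with length correction, where it was not called.

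Of 17 small GTPases of the RhoA type and their regulators, 2 fell and none rose, beside 19.2% and 14.0% of all genes. Both are RhoA exchange factors that couple to heterotrimeric G proteins, Arhgef12 (log2 fold change -1.59, SE 0.16, adjusted p = 0.0001) and Arhgef11 (-0.66, SE 0.06, adjusted p = 7.24e-05). With length correction Arhgef12 was called, at -0.999, and Arhgef11 was not, at -0.30. Rhoa itself was at 348 to 367 CPM in Tespa1+/+ and at 413 to 433 CPM in Tespa1-/- LSKs (log2 fold change 0.24, SE 0.03, adjusted p = 0.000414). With length correction it was at 0.57 (adjusted p = 1.46e-05), in both cases under the fold of 1.5.

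Of 20 genes of cortical actin and its cross-linkers, 6 fell and 0 rose, beside 19.2% lower and 14.0% higher among all genes tested. With length correction 2 were called lower and 1 higher, beside 15.3% and 8.18%. Among the largest falls were those of Tpm4, a tropomyosin (log2 fold change -1.02, SE 0.07, adjusted p = 2.17e-05), and Sptbn1, a spectrin of the membrane skeleton (-0.98, SE 0.03, adjusted p = 7.32e-07). With length correction Tpm4 was called, at -1.20, while Sptbn1 was at -0.30. Actb was at 1312, 1285 and 1516 CPM in Tespa1+/+ and at 1707, 1626 and 2583 CPM in Tespa1-/- LSKs. Its log2 fold change of 0.52 (SE 0.17, adjusted p = 0.0319) was 0.29 without the last of these libraries, and 0.40 with length correction (adjusted p = 0.0899).

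The unconventional myosins, motors that carry cargo or tether membrane to actin, had the highest share of calls among the 8 cortex lists, with 10 of 13 lower and none higher, beside the 19.2% and 14.0% of all genes. Myo9a (log2 fold change -1.29, SE 0.07, adjusted p = 5.21e-06), Myo5a (-1.27, SE 0.03, adjusted p = 8.67e-07) and Myo9b (-0.94, SE 0.06, adjusted p = 1.48e-05) fell the most among those with a mean count of at least 50. With length correction the number called lower was 4, among them these 3 at -0.71, -0.64 and -0.61, and 1 was called higher.

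Some lists of cell type markers moved in the direction of Podxl and Myh10 and others did not. The part of these markers in the results was not tested. The counts of calls stand beside 19.2% lower and 14.0% higher among all genes tested. Of 8 LSK and stem cell markers, 7 were called lower, and their summed level was 1168 to 1194 CPM in Tespa1+/+ and 637 to 655 CPM in Tespa1-/- LSKs. Mecom and Slamf1, which mark long-term stem cells, had log2 fold changes of -1.67 and -1.45 (-1.11 and -1.22 with length correction). Podxl is also a gene of endothelium and megakaryocytes. Of 8 endothelial markers 7 were lower, with a sum of 214 to 217 CPM and of 102 to 109.6 CPM. Most of this sum came from Pecam1, Tie1 and Vwf. Means of Cdh5, Kdr and Emcn were only 2.07, 2.13 and 1.92 CPM in Tespa1+/+ and 0.475, 0.0587 and 0.235 CPM in Tespa1-/- LSKs. Kdr, at 1.89 to 2.53 CPM in Tespa1+/+ LSKs, was at 0 in 2 of the 3 Tespa1-/- libraries and Cdh5 was at most 0.528 CPM in these. Tie1, which progenitors share, was at 49.99 to 56.65 and at 18.95 to 22.5 CPM, and Pecam1, not called, at 104 to 110.3 and at 70.2 to 75.9 CPM. Of 5 megakaryocyte markers tested 2 were lower (sums 87.5 to 95.4 and 64.8 to 67.5 CPM), and Gp6 was at 0 in all libraries.

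Neutrophil markers went the other way. All 8 were called higher, beside 14.0% called higher and 19.2% called lower among all genes tested. Their sum was 20.9 to 23.7 CPM in Tespa1+/+ and 469 to 495 CPM in Tespa1-/- LSKs, with Ltf and Camp at 0.385 CPM or less in each Tespa1+/+ library. Of 7 monocyte and macrophage markers 3 were lower and 1 higher, with sums of 512 to 546 and 638 to 726 CPM. The higher sum came from Ly6c2, at 233.5 to 269.8 CPM in Tespa1+/+ and 439.7 to 476.8 CPM in Tespa1-/- LSKs. Csf1r, Mrc1 and Cx3cr1 were those called lower. Erythroid markers (2 lower and 3 higher of 5 tested) summed to 18.1 to 18.9 and 31.1 to 34.99 CPM. Their rise was mainly that of Hba-a1 (3.305 to 4.955 and 17.2 to 20.8 CPM), while Klf1 and Epor were lower. B cell markers (4 lower of 5 tested) summed to 47.7 to 51.2 and 34.8 to 38.6 CPM, and T cell markers (2 lower of 3 tested) to 14.7 to 15.8 and 9.28 to 10.2 CPM. Cd3e, Cd3d and Cd3g, which define T cells, were at most at 0.44 CPM in any library.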

How the data were processed

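Stranded libraries of poly-A RNA from 6 LSK samples were read in pairs on an Illumina NovaSeq, per the labels. The authors deposited 1 table with a raw count and an FPKM value per gene and sample. The submitters' processing notes name CASAVA 1.8, HISAT2, StringTie, edgeR and GRCm38. Versions of the last 3 tools, and whether counting used the strand, are not given in the sources used here. The deposited FPKM equals the count divided by the library total and by a length fixed per gene (it varied by at most 0.000904% between samples). Of 55487 genes, 55227 were found in GENCODE M21 and 54870 had identical coordinates.

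Counts were filtered (filterByExpr), scaled (TMM) and tested in R 4.3.3 with the quasi-likelihood test of edgeR 4.0.16 over all 6 samples without covariates. The p-values were adjusted by Benjamini-Hochberg over 15332 genes, and a call needed an adjusted value below 0.05 together with a fold above 1.5. SEs come from the test statistic. In the length correction, the deviation of log2 CPM from the 6-library mean was fitted by loess (span 0.5) on log2 union exon length. The fit, less its median in each library, was used as an offset. Scripts were tested on simulated counts. Profile distances used genes with a mean count of at least 100. Alternatives were RLE factors, total counts, other filters (any count, or at least 10 in every sample), DESeq2 1.42.0, the unadjusted p, a replicate block, each library left out, and limma-trend (limma 3.58.1) on log2(FPKM + 1) and log2(FPKM + 0.1) where at least 3 samples reached an FPKM of 1.

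The 9 genes and all lists were chosen with earlier results of these data known. Named were these 9, Tespa1, all genes of lists with at most 8 genes, otherwise the 3 largest rises and falls among called genes with a mean count of at least 50, set pathway genes (Rock1, Rock2, Rhoa, Ppp1r12a, Nf2, Stk10, Slk, Actb), the 3 nearest profiles, and markers. Ppp1cb was named after its values were seen. Some genes that this rule takes are not reported here. Replicates may share animals or preparation, so p-values measure the spread between these libraries. Without molecular identifiers, counting limits cover counting error only.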

Additional observations from a re-analysis of the deposited data

How the results depend on the processing

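All 133 alternative log2 fold changes of the 9 genes kept their direction, and 24 moved by more than 1 SD between replicates. Podxl ranged from -3.36 to -1.36, the last on log2(FPKM + 1), where low genes are compressed, and Myh10, which did not pass the FPKM filter, from -3.82 to -3.13. Myh9 ranged from -0.70 to -0.02 and Rdx from 0.03 to 0.48. The count of all genes called higher (2148) was 1253 with length correction, 1070 on log2(FPKM + 1) and 1365 on log2(FPKM + 0.1), and of those called lower (2951) 1626 on log2(FPKM + 1). Leaving out single libraries gave 25 to 26 cortex genes lower and 2 to 3 higher. Of the cortex lists, 13 genes were called lower with length correction (28 without it) and 4 higher, and 0 were called higher with total counts and on both FPKM scales (2 in the reported fit). Total counts shift the median of all genes by -0.10. Of 410 alternative values of 28 named cortex genes 396 kept their direction, 13 lost and 6 gained a call. Reversed values were -0.0596 (total counts) and -0.0902 (length correction) for Slc9a3r2, -0.035 to 0.10 with libraries left out. With length correction Slk was at 0.0098, Nf2 at 0.056, Rock2 at 0.10 and Ppp1r12a at 0.067. Rock1 was at -0.095 with total counts, -0.018 with at least 10 counts, -0.084 and -0.094 on the FPKM scales and -0.0078 to 0.029 with libraries left out, and Myl6b at -0.11 to 0.058. The cause was not tested. Libraries with the same replicate number shared little deviation from their group means (correlations 0.0459, 0.0107 and 0.0595). This cannot show whether the samples were paired. The replicate block gave 2101 genes higher and 2871 lower. Counts of 11 to 22 limit Podxl and Myh10 in Tespa1-/- libraries, and shared sequence limits Myl12a and Myl12b.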
